A study of Mus musculus with 30 samples.

Results

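Immunity-related GTPases (IRG) and guanylate-binding proteins (GBP) are cytosolic GTPases that mouse cells make in large amounts after exposure to interferon. The members described here were chosen by gene symbol, as 5 IRG genes (Irgm1, Irgm2, Igtp, Iigp1 and Tgtp1) and 5 GBP genes (Gbp2, Gbp3, Gbp4, Gbp6 and Gbp7), which are 10 of the 24746 gene symbols counted in every library. They were followed through 30 libraries of whole tissue from the terminal ileum or distal colon of C3H/HeOuJ mice, 3 libraries in each of 10 groups. In the ileum, germ-free mice given an SPF microbiota in week 5 of life (COL), specific-pathogen-free mice (SPF) and germ-free mice (GF) were sampled at 10 weeks and at 6 weeks of age. In the colon, COL and SPF mice were sampled at 10 weeks, either after 4 days of 1.5% dextran sulfate sodium (DSS) followed by 2 days of water or without DSS. DSS in the drinking water injures the colonic epithelium and is a common mouse model of colitis. Every comparison below is thus within 1 inbred strain, and the GF state was sampled in the ileum only. The labels do not state that the libraries of a group come from separate mice, so the p-values below are set against the spread among these libraries, and part of that spread may be technical only.

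Interferon-gamma, released mainly by activated T cells and natural killer (NK) cells, binds its receptor and, in part through the transcription factor Irf1, switches on the IRG and GBP genes in most cell types, gut epithelium included. Effector IRGs and GBPs then assemble on the vacuoles of intracellular pathogens such as Toxoplasma and break their membranes, and GBPs also bind bacteria and help to set off inflammasomes. A small regulatory subset of IRGs sits on the cell's own membranes and keeps the effector IRGs inactive there.

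Interferon-responsive factors read short DNA words near gene starts, so the stretch of promoter that carries such a word is shown for each member with an entry in the RefSeq promoter windows of build GRCm38.p6, which run from 250 bases before to 50 bases after the start of a gene. The capitals mark the core of the interferon-stimulated response element (ISRE), searched on both strands as GAAA, any 2 bases, GAAA, in the gene's own 5′ to 3′ direction. A run of TTTC words in capitals is the same core on the opposite strand. 7 of the 10 members had an entry, and Iigp1, Gbp4 and Gbp6 did not. The regulatory and effector IRGs come first, then the GBPs.
Irgm1 (chr11:48871410-48871475, minus strand): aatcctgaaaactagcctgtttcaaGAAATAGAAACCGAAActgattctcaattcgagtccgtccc
Igtp (chr11:58199497-58199556, plus strand): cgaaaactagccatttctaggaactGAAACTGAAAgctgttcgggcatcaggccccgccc
Irgm2 (chr11:58214888-58214947, plus strand): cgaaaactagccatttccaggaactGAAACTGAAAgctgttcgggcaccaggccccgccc
Tgtp1 (chr11:48992289-48992348, minus strand): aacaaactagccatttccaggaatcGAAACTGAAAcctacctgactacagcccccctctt
Gbp2 (chr3:142620579-142620638, plus strand): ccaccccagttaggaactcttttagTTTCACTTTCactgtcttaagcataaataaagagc
Gbp3 (chr3:142559974-142560039, plus strand): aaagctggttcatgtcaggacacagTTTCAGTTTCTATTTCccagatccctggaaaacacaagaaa
Gbp7 (chr3:142530258-142530317, plus strand): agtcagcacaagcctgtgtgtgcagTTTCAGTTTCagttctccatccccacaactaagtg

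Gbp3 has 2 windows in the table, so the 7 members have 8 windows. The ISRE core stood in 7 of these 8, at least 1 for each member and not in the second window of Gbp3, against 1131 of the 32851 promoter windows in the table (3.44%). In Irgm1 and Gbp3, 2 cores overlap and share a GAAA word. The middle of the match lay 25 to 72 bases upstream of the RefSeq start. The GENCODE places given below start further upstream for several members, most of all for Irgm2 (58199618) and Tgtp1 (48994172, minus strand). The printed stretches of Irgm1, Irgm2 and Tgtp1 lie wholly within the gene as GENCODE places it. The exact word GAAACTGAAA, on either strand, was shared by Irgm2, Igtp, Tgtp1, Gbp3 and Gbp7, and 76 of all windows (0.231%) held it. The gamma-activated site, another interferon-responsive word, searched as TTCNNNGAA, which reads the same on both strands in this form, was found in 4 of the 8 windows (Tgtp1, Igtp, Irgm2 and Gbp7), against 8.3% of all windows. The windows of Igtp and Irgm2, neighbours on the plus strand, were identical at 184 of 270 bases compared without gaps (68.1%), and both printed stretches hold the same core. These are matches of letters, and binding was not measured.

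The libraries held 2233837 to 9088573 reads in genes in the ileum and 3830539 to 6791455 in the colon. They are 3′ tag libraries, in which a transcript gives about 1 read near its end, so levels are given as CPM, the reads of a gene per 1000000 reads in genes, not divided by length. Fabp6, the ileal bile acid binding protein, averaged 16400 to 27500 CPM in the ileum groups and 10.4 to 117 CPM in the colon groups, and Car1, a carbonic anhydrase of colonocytes, averaged 741 to 2000 CPM in the colon groups and at most 1.5 CPM in the ileum groups. The 10-week SPF ileum replicate 3, the shallowest library, had a summed smooth muscle marker level of 197 CPM, against 1430 and 1810 CPM in the other libraries of its group. Reads that align to several places are not counted, so close copies could lose or trade reads. Of the 50-base words in the last 600 bases of the transcripts, 43% of those of Tgtp1 also stand in Tgtp2 and 6.17% of those of Gbp6 in Gbp9, and none of those of the other members stands in a relative. Irgm2 overlaps Igtp, and Gbp4 overlaps Gbp8 and Gbp9, on the same strand, so reads in the overlaps may be split or dropped. Gbp6 had too few reads to be tested, and the tests below cover 9 members.

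In the ileum at 10 weeks, mice with a microbiota expressed the family at a far higher level than GF mice. Summed over the 10 genes, the level was 633 ± 58.5 CPM in COL ileum, 506 ± 149 CPM in SPF ileum and 48 ± 13 CPM in GF ileum (mean ± SD, n = 3 each). In COL against GF, 8 of the 9 members tested rose, and in SPF against GF 7 rose, while 5.1% and 4.22% of all 13233 genes tested in the ileum rose in the same comparisons. A gene is said to rise or fall at a Benjamini-Hochberg adjusted p under 0.05 over all genes tested, by edgeR's quasi-likelihood test. The median log2 fold change of the members was 2.79 for COL and 2.31 for SPF, against 0.0107 and 0.0199 over all genes tested. Both comparisons use the same 3 GF libraries. The tissue was taken whole, so more RNA per cell and more cells of a type that expresses these genes cannot be told apart here or in any comparison below.

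Irgm2 and Igtp, both regulatory IRGs, had the largest fold changes. All 10 members are protein-coding genes, and their places are given from GENCODE vM21 on build mm10, the build of the counts. Irgm2 (chr11:58199618-58222782, plus strand), which holds back effector IRGs and dampens caspase-11 responses in mouse cells, stood at 250, 219 and 206 CPM in COL ileum, 137, 184 and 200 CPM in SPF ileum and 11.3, 15.9 and 10.1 CPM in GF ileum. Igtp (chr11:58199556-58207591, plus strand), also called Irgm3, which resides at the endoplasmic reticulum and is needed for resistance to Toxoplasma, stood at 159, 182 and 132 CPM in COL ileum, 77.2, 178 and 226 CPM in SPF ileum and 3.7, 12.2 and 2.72 CPM in GF ileum. For both genes every COL and SPF library lay above every GF library, by a wide margin. Irgm2 rose 17.9-fold in COL against GF (log2 fold change 4.17 ± 0.223 (SE), adjusted p = 3e-12) and 14.4-fold in SPF against GF (3.85 ± 0.221, adjusted p = 1.7e-11, edgeR). Igtp rose 24.4-fold in COL (4.61 ± 0.539, adjusted p = 1e-04) and 26.1-fold in SPF (4.7 ± 0.543, adjusted p = 0.00013, edgeR). With only the 6 SPF and GF libraries in the fit, the call for Igtp in SPF was lost (adjusted p = 0.054). Irgm1 (chr11:48861968-48871683, minus strand), a regulatory IRG of host membranes that mice need against several intracellular bacteria, stood at 9.46, 14.2 and 17.6 CPM in COL ileum, 9.45, 12.6 and 17.5 CPM in SPF ileum and 1.74, 3.12 and 3.11 CPM in GF ileum. Its groups did not overlap either, and it rose in COL (2.35 ± 0.414, adjusted p = 0.00045) and in SPF (2.31 ± 0.421, adjusted p = 0.00095, edgeR).

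Among the effector IRGs, Iigp1 (Irga6, chr18:60376027-60392634, plus strand), which coats the Toxoplasma vacuole, stood at 82.2, 89.8 and 70.2 CPM in COL ileum, 29.7, 61.7 and 65.4 CPM in SPF ileum and 5.66, 8.1 and 3.88 CPM in GF ileum. The 3 GF libraries lay below all others, and SPF replicate 1 lay well below its group. Iigp1 rose 13.5-fold in COL (log2 3.76 ± 0.316, adjusted p = 2e-08), and in SPF it rose by 3.18 ± 0.316 on the log2 scale (adjusted p = 4.2e-07, edgeR). Tgtp1 (Irgb6, chr11:48985327-48994172, minus strand), another effector that loads onto the vacuole, was scarce, at 3.64, 1.98 and 1.07 CPM in COL ileum, 1.03, 2.64 and 0.895 CPM in SPF ileum and 0.435, 0.623 and 0 CPM in GF ileum. The 3 GF libraries held 6 reads of Tgtp1 in all. Its groups did not overlap, but neither difference passed the test (log2 2.55, adjusted p = 0.093 in COL, and 2.08, adjusted p = 0.25 in SPF, edgeR).

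Of the GBPs, Gbp7 (chr3:142530342-142550149, plus strand), a mouse GBP tied to oxidative defence against bacteria, stood at 99.7, 114 and 79.5 CPM in COL ileum, 61.3, 62.9 and 74.8 CPM in SPF ileum and 10.9, 9.35 and 6.99 CPM in GF ileum. Gbp4 (chr5:105115767-105139586, minus strand), reported in mice to bind the transcription factor Irf7, stood at 14.9, 18.9 and 18.9 CPM in COL ileum, 12.1, 9.74 and 15.2 CPM in SPF ileum and 3.27, 1.87 and 2.52 CPM in GF ileum. For both, the GF libraries lay apart and below. Gbp7 rose in COL (3.43 ± 0.225, adjusted p = 1.1e-10) and in SPF (2.91 ± 0.225, adjusted p = 2.3e-09), and Gbp4 rose in COL (2.79 ± 0.432, adjusted p = 9.6e-05) and in SPF (2.31 ± 0.438, adjusted p = 0.0014, edgeR).

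Gbp2 (chr3:142620602-142638008, plus strand), a lipid-anchored GBP that binds pathogen vacuoles and bacteria, stood at 15.1, 31.7 and 32.8 CPM in COL ileum, 8.56, 17.4 and 24.6 CPM in SPF ileum and 5.01, 6.55 and 4.27 CPM in GF ileum. The groups did not overlap, but SPF replicate 1 was close to the GF libraries. Gbp2 rose in COL (2.31 ± 0.434, adjusted p = 0.0011) and in SPF (1.69 ± 0.443, adjusted p = 0.023, edgeR). The SPF call was lost without SPF replicate 2 or 3 or any 1 of the GF libraries (adjusted p 0.055 to 0.11). Gbp3 (chr3:142560026-142573209, plus strand), of the cluster that also holds Gbp2 and Gbp7, stood at 11.1, 13.5 and 10.5 CPM in COL ileum, 5.76, 13.4 and 8.06 CPM in SPF ileum and 1.96, 4.83 and 3.88 CPM in GF ileum. It rose in COL (1.69 ± 0.419, adjusted p = 0.0096), a call lost without GF replicate 1 (adjusted p = 0.069), and in SPF its log2 difference of 1.37 had an adjusted p of 0.055 (edgeR). Gbp6 (chr5:105270702-105293698, minus strand), which is recruited to the Toxoplasma vacuole in mouse cells, had 1 read in the COL group, 3 reads in the SPF group and none in the GF group, where 0 reads allow up to 0.186 CPM (3 reads over the group, counting error only).

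**Figure D1:**
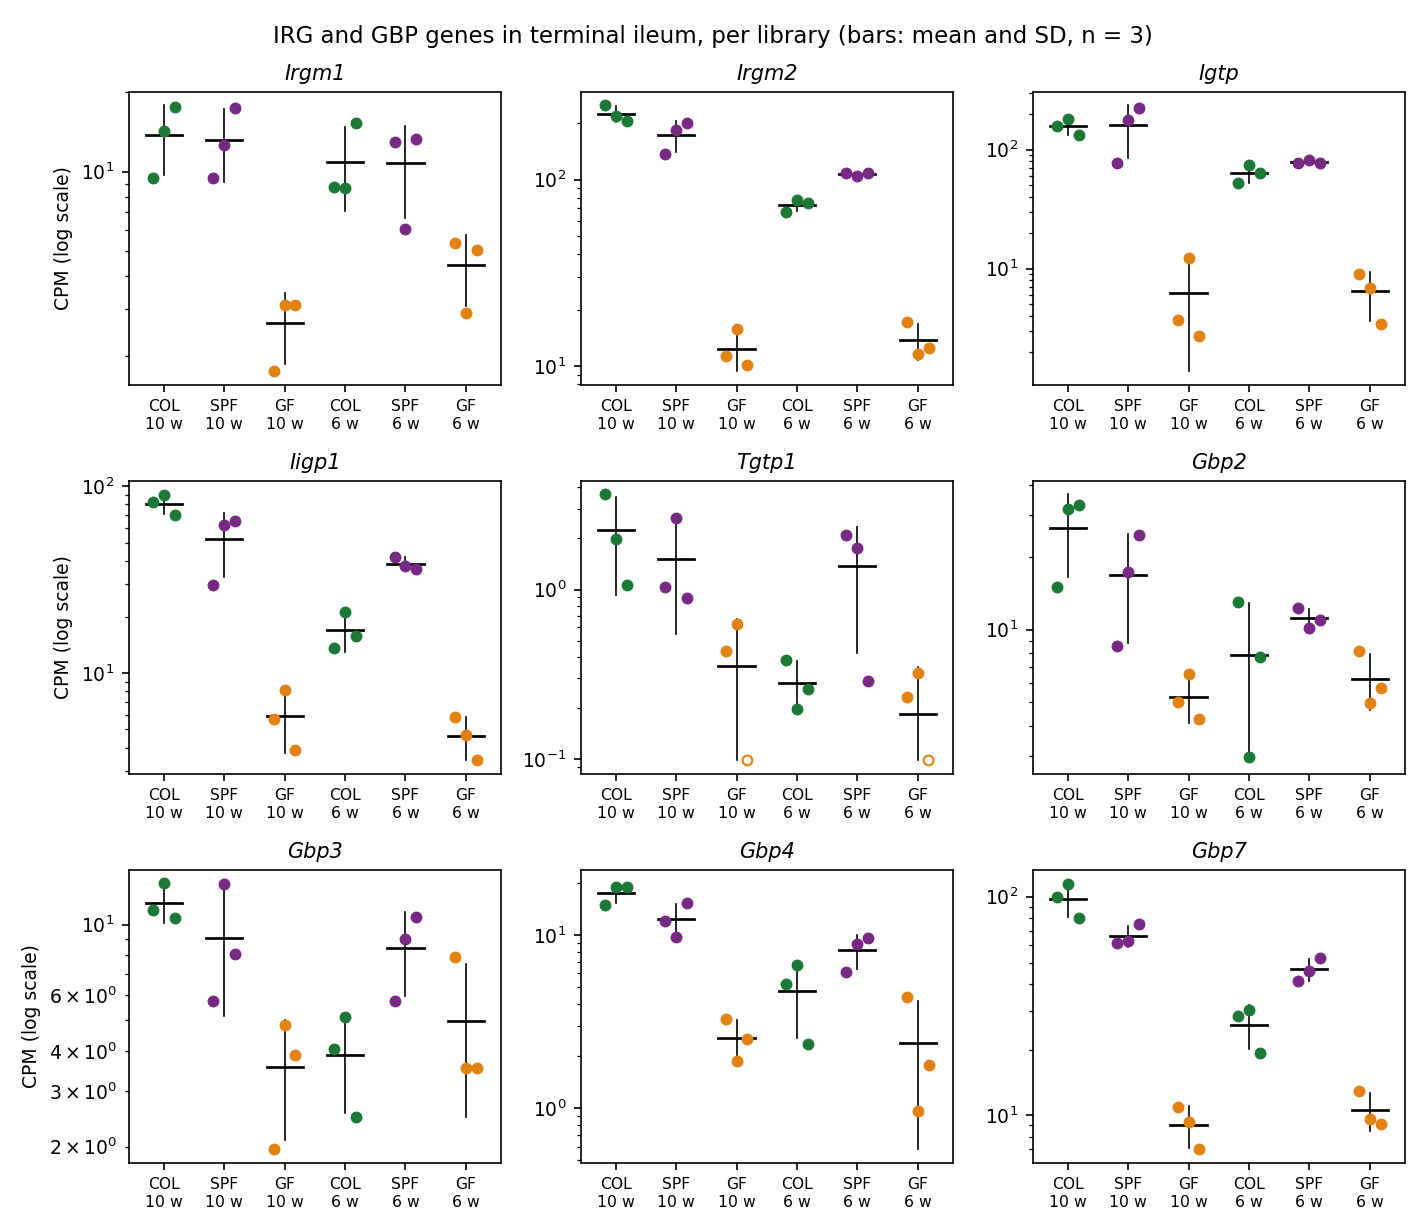
Level of 9 of the 10 GTPase genes in each ileum library (points, CPM on a log axis), with the group mean and SD as bars (n = 3), for COL, SPF and GF mice at 10 weeks and then at 6 weeks of age. Open circles are libraries with no read, drawn at the foot of the axis, and Gbp6 is not drawn. The GF libraries of Irgm2, Igtp, Iigp1 and Gbp7 lie below the COL and SPF libraries at both ages.

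At 6 weeks somewhat fewer members passed the test, and that difference in number was not itself tested. The summed level was 207 ± 17.9 CPM in COL ileum, 311 ± 7.57 CPM in SPF ileum and 53.7 ± 15 CPM in GF ileum (SD, n = 3 each). Of the 9 members tested, 5 rose in COL against GF, where 2.78% of all genes rose, and 6 rose in SPF against GF, where 4.37% of all genes rose. The members' median log2 fold change was 1.54 in COL and 2.35 in SPF, against -0.0244 and -0.0152 over all genes tested.

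Irgm2 stood at 67.2, 77.8 and 74.6 CPM in COL ileum, 109, 104 and 108 CPM in SPF ileum and 17.2, 11.6 and 12.5 CPM in GF ileum at 6 weeks. Igtp stood at 52.3, 74.3 and 63.2 CPM in COL ileum, 77.9, 82.2 and 77.6 CPM in SPF ileum and 9.05, 6.91 and 3.41 CPM in GF ileum. For both genes the libraries fell into 3 separate bands, with SPF highest, COL in the middle and GF lowest. Irgm2 rose in COL (2.67 ± 0.213, adjusted p = 3e-08) and in SPF (3.18 ± 0.215, adjusted p = 7.2e-10), and Igtp rose in COL (3.59 ± 0.53, adjusted p = 0.0012) and in SPF (3.87 ± 0.531, adjusted p = 4e-04, edgeR). Irgm1 was at 8.71, 8.67 and 15.3 CPM in COL ileum, 12.9, 6.05 and 13.3 CPM in SPF ileum and 5.34, 2.89 and 5.04 CPM in GF ileum, so the lowest SPF library came close to the highest GF library. It rose in COL (1.56 ± 0.392) and in SPF (1.47 ± 0.389, adjusted p = 0.018 in each, edgeR). These calls were lost without COL replicate 3 (adjusted p = 0.17), SPF replicate 1 or 3 (0.11 and 0.057) or GF replicate 2 (0.13 in both comparisons).

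Iigp1 stood at 13.7, 21.3 and 15.9 CPM in COL ileum, 42, 37.5 and 36.3 CPM in SPF ileum and 5.8, 4.66 and 3.41 CPM in GF ileum at 6 weeks. It again formed 3 bands without overlap, and rose in COL (2.15 ± 0.325, adjusted p = 0.00022) and in SPF (3.3 ± 0.32, adjusted p = 3.1e-07, edgeR). Tgtp1 had 5 reads in the COL group, 34 in the SPF group and 3 in the GF group, a ratio to GF of 1.66 for COL (95% interval 0.324 to 10.7, counting error only) and 8.57 for SPF (2.69 to 43.6). Neither difference passed the test (adjusted p = 0.79 in COL and 0.07 in SPF, edgeR).

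Gbp7 stood at 28.5, 30.3 and 19.2 CPM in COL ileum, 41.3, 45.9 and 52.3 CPM in SPF ileum and 13, 9.64 and 9.13 CPM in GF ileum at 6 weeks. Its 3 groups were again apart, and it rose in COL (1.54 ± 0.219, adjusted p = 1e-04) and in SPF (2.35 ± 0.217, adjusted p = 7.2e-08, edgeR). Gbp4 stood at 5.23, 6.7 and 2.35 CPM in COL ileum, 6.15, 8.91 and 9.55 CPM in SPF ileum and 4.41, 0.964 and 1.77 CPM in GF ileum. Its COL libraries overlapped the GF libraries and its SPF libraries did not; it rose in SPF (2.05 ± 0.434, adjusted p = 0.0031), and in COL its log2 difference of 1.28 had an adjusted p of 0.11 (edgeR). Gbp2 differed from GF by 0.571 in COL and 1.05 in SPF on the log2 scale (adjusted p = 0.56 and 0.15, edgeR), and the COL library with most Gbp2 reached 13 CPM, against 8.12 CPM in the highest GF library. Gbp3 ranged from 2.48 to 5.12 CPM in COL ileum, 5.75 to 10.6 CPM in SPF ileum and 3.54 to 7.89 CPM in GF ileum. It differed from GF by -0.104 in COL and 0.989 in SPF (adjusted p = 0.94 and 0.16, edgeR), and the COL value was 0.332 without GF replicate 1 and 0.133 without COL replicate 3.

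Across both ages, Irgm1, Irgm2, Igtp, Iigp1 and Gbp7, 5 genes, rose in all 4 comparisons with GF. The share of all genes that rose in all 4 was not counted and cannot exceed the 2.78% that rose in COL at 6 weeks. The COL and SPF comparisons of an age share its GF libraries, so they are not independent of each other.

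**Figure D2:**
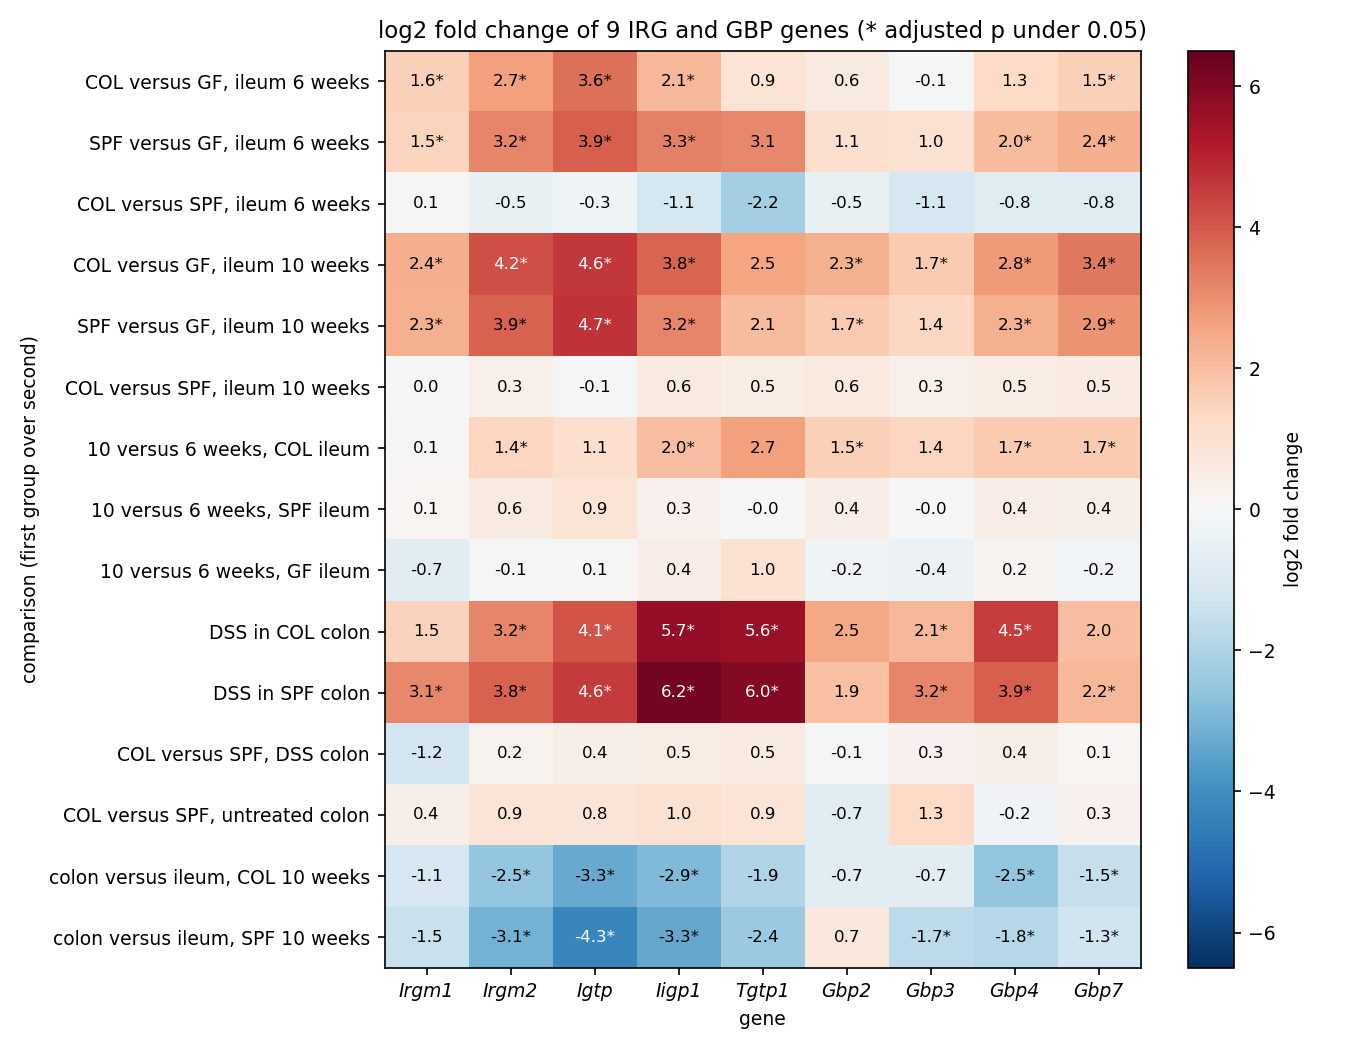
Log2 fold changes of 9 GTPase genes (columns) in 15 comparisons (rows), with colour from lower (blue) to higher (red) in the group named first and a star where the adjusted p was under 0.05. The rows of COL or SPF against GF and of DSS against no DSS are red throughout but for Gbp3 in COL against GF at 6 weeks, and the rows of colon against ileum are mostly blue.

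COL and SPF mice were then set against each other in the ileum. No member passed the test at 10 weeks, where 0.0907% of all genes did, or at 6 weeks, where 0.0982% did. At 6 weeks the members' median log2 difference of COL against SPF was -0.775, and in 5 of the 10 genes, Irgm2, Igtp, Iigp1, Gbp3 and Gbp7, all COL libraries lay below all SPF libraries, as they did for 9.22% of all genes tested. The differences with an unadjusted p under 0.05 were those of Irgm2 (-0.507 ± 0.191, adjusted p = 0.5), Iigp1 (-1.15 ± 0.28, adjusted p = 0.14), Gbp3 (-1.09 ± 0.413, adjusted p = 0.5), Gbp7 (-0.808 ± 0.202, adjusted p = 0.14) and Tgtp1 (-2.23 ± 0.975, adjusted p = 0.57, edgeR). Of all 13233 genes tested, 1048 had an unadjusted p under 0.05 in that comparison. At 10 weeks the median was 0.47 in the other direction, and 3 members had all COL libraries above all SPF libraries, as had 5.22% of all genes tested. There, 2 members had an unadjusted p under 0.05, Gbp7 (0.516 ± 0.197, adjusted p = 0.47) and Iigp1 (0.578 ± 0.271, adjusted p = 0.6, edgeR), as had 1055 of all genes tested. DESeq2 called Iigp1 and Gbp7 at 6 weeks (adjusted p = 0.041 and 0.044) and none at 10 weeks, and edgeR with only the libraries compared called Iigp1 at 6 weeks (adjusted p = 0.014).

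Between ages, members rose in the ileum of COL mice. These mice were given the microbiota in week 5 of life, so age and time since then cannot be told apart. The 10-week COL libraries lay above all 6-week COL libraries for 8 of the 10 genes, as they did for 21.1% of all genes tested, and 5 of the 9 tested rose at 10 weeks against 6 weeks, where 1.62% of all genes rose. Iigp1 rose most among them, with the 10-week values of 70.2 to 89.8 CPM against 13.7 to 21.3 CPM at 6 weeks (log2 2.02 ± 0.283, adjusted p = 0.00027). Gbp7 rose by 1.7 ± 0.204 (adjusted p = 2.5e-05), Irgm2 by 1.4 ± 0.193 (adjusted p = 0.00018), Gbp4 by 1.69 ± 0.402 (adjusted p = 0.024) and Gbp2 by 1.54 ± 0.416 (adjusted p = 0.049, edgeR). The calls for Gbp4 and Gbp2 were lost without 10-week COL replicate 2 or 3 or 6-week COL replicate 3 (adjusted p 0.069 to 0.19), which left 3 members called. Gbp4 was also lost without 6-week COL replicate 1 (0.054), and Gbp2 without 6-week COL replicate 2 (0.15) or with the replicate number as a block (0.066). Irgm1 overlapped between the ages (13.8 ± 4.11 CPM at 10 weeks and 10.9 ± 3.81 CPM at 6 weeks, SD, n = 3 each, adjusted p = 0.93).

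In SPF ileum no member was called between 10 and 6 weeks (median log2 difference 0.377, 1.37% of all genes called in either direction), and 1 member, Irgm2, had an unadjusted p under 0.05 (0.571 ± 0.19, adjusted p = 0.11, edgeR), as had 2475 of all genes tested. In GF ileum no member was called either (median -0.1, 0.0302% of all genes called), and none had an unadjusted p under 0.05; DESeq2 called none in GF or SPF.

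Whether the difference between COL and GF changed with age was tested directly, and in COL mice age also stands for time since colonization. The difference was larger at 10 than at 6 weeks for 2 members, against 0.128% of all genes that rose in this test. The members' median was 1.61, against 0.0139 over all genes. For Gbp7 the COL effect was larger at 10 weeks by 1.89 ± 0.308 on the log2 scale (adjusted p = 0.0028), and for Irgm2 by 1.5 ± 0.294 (adjusted p = 0.023, edgeR). The Irgm2 call was lost without 10-week COL replicate 1 (adjusted p = 0.054), 10-week GF replicate 1 or 3 (0.081 and 0.13), 6-week GF replicate 1 (0.11) or 6-week COL replicate 1 or 3 (0.073 and 0.051). The difference between SPF and GF was not called to change with age for any member (0.0151% of all genes called). Of the members, Irgm2 alone had an unadjusted p under 0.05 there (0.671 ± 0.293, adjusted p = 0.55, edgeR), as had 1132 of all genes tested.

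Without DSS the 10-week colon held less of most members than the 10-week ileum. In COL mice, 5 of 9 members were lower in colon than in ileum, where 14.3% of all 13807 genes tested fell, and in SPF mice 6 of 9, where 17.2% fell. Igtp, at 25.4, 11.4 and 14.1 CPM in COL colon, against 159, 182 and 132 CPM in COL ileum, fell by 3.29 ± 0.722 on the log2 scale (adjusted p = 0.0016). In SPF mice it stood at 12.8, 6.02 and 9.34 CPM in colon, against 77.2, 178 and 226 CPM in ileum, with a log2 change of -4.26 (adjusted p = 0.00021, edgeR). In both statuses no colon library reached an ileum library. Irgm2, Iigp1, Gbp4 and Gbp7 also fell in both statuses, by 1.3 to 3.33 on the log2 scale, and Gbp3 fell in SPF mice (-1.7, adjusted p = 0.0044, edgeR). Gbp2 did not pass the test in COL (-0.675) or SPF mice (0.672), where it averaged 17.5 and 28.6 CPM in colon, against 26.5 and 16.9 CPM in ileum. In SPF mice the Gbp4 and Gbp7 calls were lost without several of the libraries (adjusted p 0.053 to 0.1) and the Gbp3 call without ileum replicate 2 (0.053).

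The family was higher in the colon of mice given DSS, in both statuses. The summed level was 1540 ± 1400 CPM in COL mice on DSS, against 142 ± 58.5 CPM in COL mice without it, and 1270 ± 850 CPM in SPF mice on DSS, against 107 ± 18.5 CPM without it (SD, n = 3 each). In COL colon 6 of 9 members rose, where 4.14% of all 12855 genes tested rose, and in SPF colon 8 of 9 rose, where 12.2% of all genes rose. The median log2 fold change was 3.18 in COL and 3.82 in SPF, against 0.00656 and -0.0342 over all genes tested. These counts and medians include Tgtp1, which passed the filter on low counts only through the DSS libraries, so its calls add no support. In each status, 9 of the 10 genes had all DSS libraries above all libraries without DSS, as had 14.2% of all genes tested in COL and 14.5% in SPF. The libraries within a DSS group were far apart. COL replicate 3 was the highest of its group for 9 of the 10 genes and COL replicate 1 the lowest for all 10, and SPF replicate 1 was the highest for 9.

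Iigp1 had the largest fitted fold change of the members in each status. It stood at 105, 338 and 1210 CPM in COL colon with DSS, against 20.9, 8.99 and 4.82 CPM without, and at 790, 245 and 157 CPM in SPF colon with DSS, against 3.92, 7.36 and 5.64 CPM without. The lowest DSS library was thus several times the highest library without DSS. The fitted rise was 51.7-fold in COL (log2 5.69 ± 1.08, adjusted p = 0.013) and 73.8-fold in SPF (6.21 ± 1.14, adjusted p = 0.0046, edgeR). Tgtp1 stood at 3.83, 23.8 and 55 CPM in COL colon with DSS, against 0.997, 0.734 and 0 CPM without, and at 43.5, 9.1 and 3.54 CPM in SPF colon with DSS, against 0.522, 0.446 and 0 CPM without. The groups without DSS held 10 reads of Tgtp1 in COL and 4 in SPF, and within the DSS groups the highest library was 14.4 times the lowest in COL and 12.3 times in SPF. It rose in COL (5.59 ± 1.33, adjusted p = 0.029) and in SPF (5.95 ± 1.52, adjusted p = 0.017, edgeR). No untreated colon library held more than 6 reads of Tgtp1, so it passed the filter on low counts only through the DSS libraries. Its calls are among those counted above under DSS.

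Of the regulatory IRGs, Irgm2 stood at 133, 290 and 637 CPM in COL colon with DSS, against 60.3, 36.1 and 29.7 CPM without, and at 459, 323 and 117 CPM in SPF colon with DSS, against 13.6, 27.2 and 26.3 CPM without. Igtp stood at 62.3, 158 and 579 CPM in COL colon with DSS, against 25.4, 11.4 and 14.1 CPM without, and at 364, 182 and 80.7 CPM in SPF colon with DSS, against 12.8, 6.02 and 9.34 CPM without. Neither gene's groups overlapped. Irgm2 rose in COL (3.18 ± 0.636, adjusted p = 0.012) and SPF (3.82 ± 0.662, adjusted p = 0.0024), and Igtp rose in COL (4.1 ± 0.881, adjusted p = 0.021) and SPF (4.56 ± 0.92, adjusted p = 0.0067, edgeR). Irgm1 followed another pattern over the libraries. It stood at 15.9, 18.6 and 20.4 CPM in COL colon with DSS, against 13.8, 1.65 and 4.82 CPM without, and at 50.6, 68.8 and 6.37 CPM in SPF colon with DSS, against 8.09, 2.68 and 4.67 CPM without. SPF replicate 3 on DSS lay among the libraries without DSS. Irgm1 rose in SPF (3.12 ± 0.83, adjusted p = 0.019) and did not pass in COL (1.51, adjusted p = 0.28, edgeR).

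Among the GBPs, Gbp4 stood at 18.4, 32.5 and 152 CPM in COL colon with DSS, against 4.32, 3.67 and 1.54 CPM without, and at 72.2, 38.5 and 44.9 CPM in SPF colon with DSS, against 3.39, 3.12 and 4.48 CPM without. Gbp3 stood at 20.2, 26.4 and 47.8 CPM in COL colon with DSS, against 9.3, 6.79 and 6.55 CPM without, and at 36.7, 17.1 and 23.6 CPM in SPF colon with DSS, against 1.83, 4.46 and 2.72 CPM without. For both genes the DSS libraries lay above the others in each status. Gbp4 rose in COL (4.51 ± 0.781, adjusted p = 0.0061) and SPF (3.88 ± 0.775, adjusted p = 0.0049), and Gbp3 rose in COL (2.15 ± 0.395, adjusted p = 0.0038) and SPF (3.16 ± 0.438, adjusted p = 0.00028, edgeR).

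Gbp7 stood at 55.7, 120 and 229 CPM in COL colon with DSS, against 53.8, 27.9 and 26.2 CPM without, so that the lowest DSS library and the highest untreated one nearly met. In SPF colon it stood at 201, 83.4 and 86.2 CPM with DSS, against 19.1, 21.6 and 46.7 CPM without. Gbp7 rose in SPF (2.16 ± 0.569, adjusted p = 0.017), and its log2 difference of 2.01 in COL had an adjusted p of 0.05 and was not called (edgeR). Gbp2 stood at 31.8, 61 and 186 CPM in COL colon with DSS, against 20.6, 15.4 and 16.6 CPM without, and at 201, 51.2 and 56 CPM in SPF colon with DSS, against 23, 41.7 and 21 CPM without. The groups did not overlap, but the test was not passed in COL (2.52, adjusted p = 0.057) or in SPF (1.93, adjusted p = 0.065, edgeR). Gbp6 was read only after DSS in the colon, with 0, 7 and 5 reads in the COL libraries and 9, 5 and 5 in the SPF libraries and none in either group without DSS. The 0 reads allow up to 0.18 CPM in untreated COL colon and 0.223 CPM in untreated SPF colon (3 reads over the group, counting error only).

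**Figure D3:**
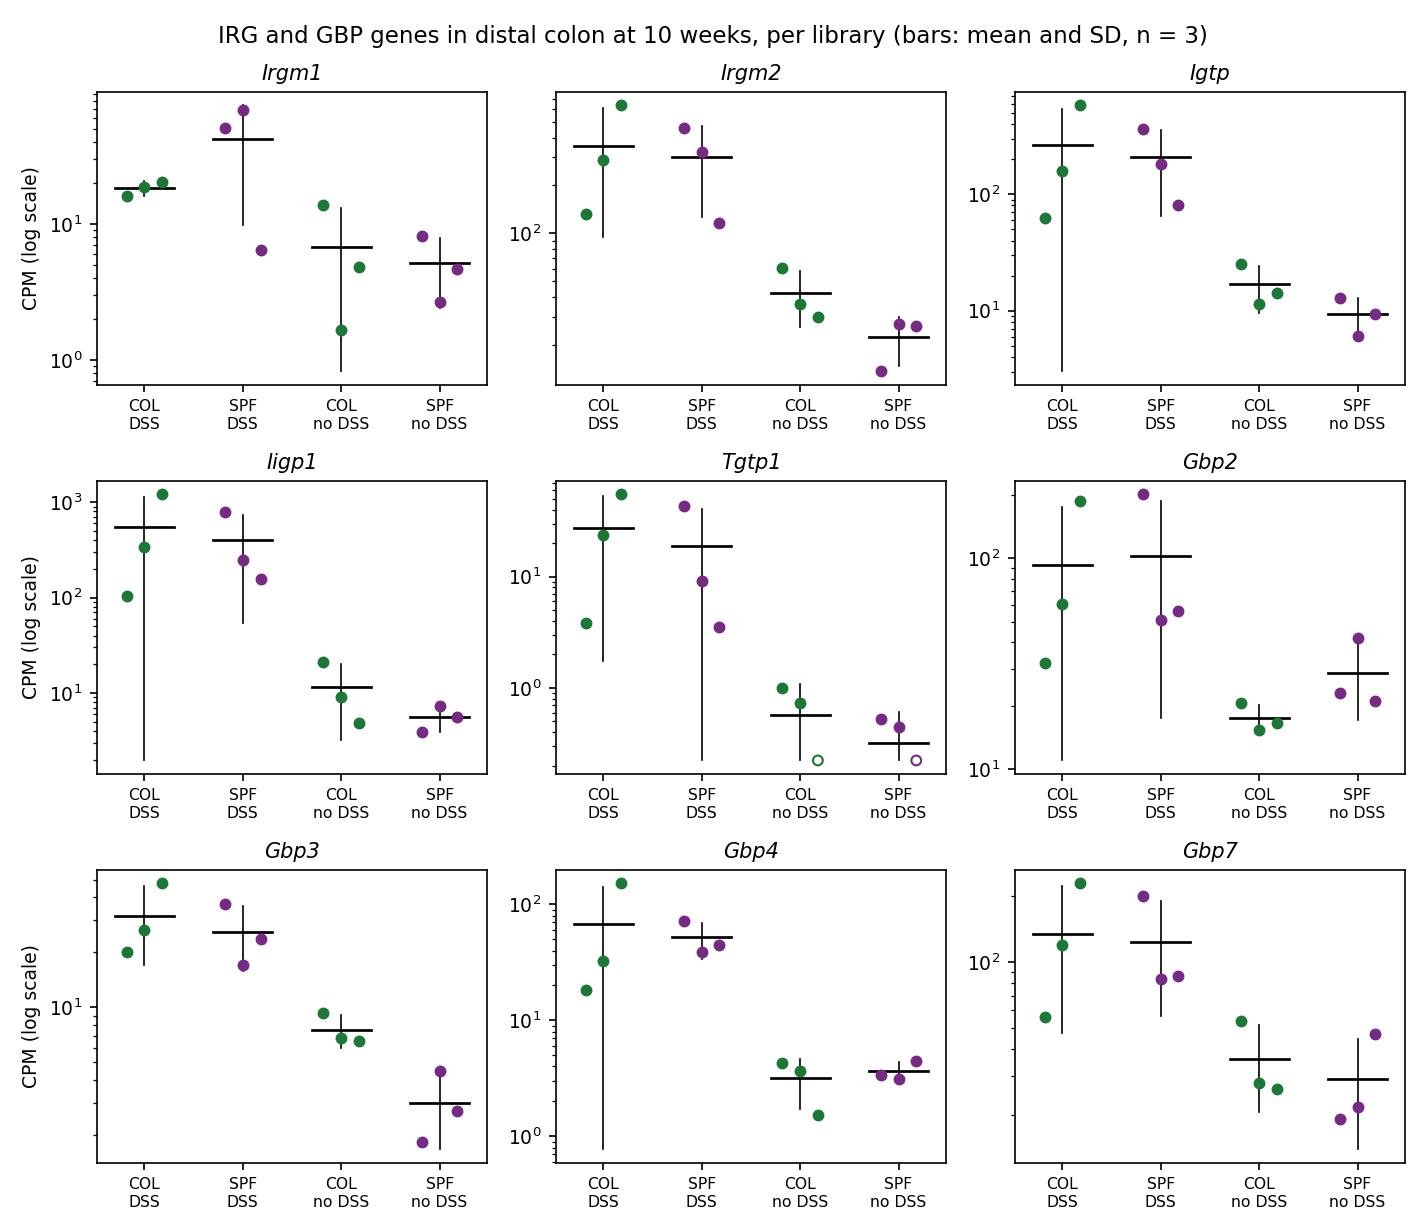
Level of 9 of the 10 GTPase genes in each colon library (points, CPM on a log axis), with the group mean and SD as bars (n = 3), for COL and SPF mice with DSS and then COL and SPF mice without DSS. Open circles are libraries with no read, and lower error bars are clipped at the foot of the axis. Within a status, the DSS libraries lie above those without DSS for every gene drawn but Irgm1, in which SPF replicate 3 on DSS lies among the untreated libraries, and for Iigp1 in COL mice they range from 105 to 1210 CPM.

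The DSS calls in COL mice leaned on single libraries. Without untreated COL replicate 2 or 3, 2 members were called, without untreated replicate 1, 4 were, without DSS replicate 2 or 3, 5 were, and without DSS replicate 1, 8 were. In SPF mice, 5 to 8 members were called when 1 library was left out, with 5 without untreated replicate 2, and Irgm2, Igtp, Iigp1, Gbp3 and Gbp4 kept their call in every such fit. The SPF calls of Irgm1, Tgtp1 and Gbp7 were each lost in some of them (adjusted p 0.051 to 0.078). Irgm2, Igtp, Iigp1, Tgtp1, Gbp3 and Gbp4, 6 genes, were called in both statuses, Tgtp1 having passed the filter on low counts only through the DSS libraries. Of these genes, 3, Irgm2, Igtp and Iigp1, were also called in all 4 comparisons with GF in the ileum. The share of all genes that rose under DSS in both statuses was not counted and cannot exceed the 4.14% that rose in COL colon. That over all 6 comparisons was not counted either.

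COL and SPF colons were compared next. Without DSS no member was called between COL and SPF, 0% of all genes being called by edgeR, and 1 member, Gbp3, had an unadjusted p under 0.05 (1.29 ± 0.446, adjusted p = 0.59), as did 988 of all genes. With DSS no member was called (0.00778% of all genes called) and none had an unadjusted p under 0.05. The median log2 difference of COL against SPF was 0.827 without and 0.279 with DSS. The test of whether the DSS effect differed between COL and SPF called no member and 0% of all genes, with a median of -0.456 and no member at an unadjusted p under 0.05 by edgeR. DESeq2 called no member in these 3 tests.

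Over all 10 groups, the highest mean of each of the 10 genes was in a DSS colon group. Below the DSS groups, a 10-week COL or SPF ileum group ranked next for all but Gbp2, whose untreated SPF colon ranked there at 28.6 ± 11.4 CPM. The lowest mean was in GF ileum for all but Gbp3, whose lowest mean was in untreated SPF colon (3 ± 1.34 CPM), and Gbp6, which had no read in GF ileum or untreated colon. For Irgm2, the ranges of neighbouring groups were apart from 10-week COL ileum (225 ± 22.3 CPM) down through 10-week SPF, 6-week SPF and 6-week COL ileum to untreated COL colon (42 ± 16.1 CPM), while for Irgm1 every pair of neighbours in the order overlapped (SD, n = 3 each).

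Other interferon-inducible GTPases, counted from a list of 17 symbols chosen with earlier results of these data known, moved alongside. In the ileum at 10 weeks, 8 of the 9 tested rose in COL against GF (median log2 2.74) and 6 of 9 in SPF against GF (2.71), and at 6 weeks 3 of 9 rose in each (0.615 in COL and 1.61 in SPF). Under DSS 8 of 12 rose in COL colon (3.43) and 10 of 12 in SPF colon (3.72). Gm12250, an IRG gene, rose by 4.54 ± 0.491 and 4.11 on the log2 scale in 10-week COL and SPF ileum and by 6.02 under DSS in SPF colon. Ifi47, another IRG, rose by 3.2 ± 0.38 and 3.38 on the log2 scale in 10-week COL and SPF ileum and by 4.31 and 4.62 under DSS in COL and SPF colon. Gbp2b, the mouse Gbp1, rose by 2.9 ± 0.338 and 2.71 on the log2 scale in the same 10-week comparisons.

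Ifng, the gene of interferon-gamma itself, was near the limit of detection. Its reads in replicates 1 to 3 numbered 2, 3 and 0 in 10-week COL ileum, 10, 0 and 3 in 10-week SPF ileum, and 0 in every GF library of both ages. At 6 weeks there were none in COL ileum and 1, 0 and 3 in SPF ileum. In the colon there were 2, 0 and 0 in COL mice with DSS, 6, 2 and 8 in SPF mice with DSS, and none without DSS. At these counts its level could not be compared between most groups.

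Downstream of the receptor, Irf1 averaged 1050 ± 338 CPM in 10-week COL ileum, 832 ± 137 CPM in SPF ileum and 363 ± 68.9 CPM in GF ileum, and in the colon 1090 ± 464 CPM in COL mice with DSS, against 353 ± 59.7 CPM without (SD, n = 3 each). Irf1 rose in all 4 comparisons with GF and under DSS in both statuses, by 1.05 to 1.72 on the log2 scale. Socs1, the feedback inhibitor of the receptor's kinases, had log2 rises of 3.06 and 2.26 in 10-week COL and SPF ileum and of 2.74 and 4.13 under DSS in COL and SPF colon. The receptor chain Ifngr1 was called in none of the 6, and Ifngr2 fell in 10-week COL ileum against GF (log2 -0.815 ± 0.231, adjusted p = 0.026, edgeR). Il15, a cytokine that sustains NK and memory T cells, fell under DSS in COL and SPF colon (log2 -2.09 and -1.92). Of the 17 genes of interferon-gamma production and signalling tested in the ileum, 5 rose and 2 fell in COL and 6 rose in SPF at 10 weeks, and 5 rose in COL and 6 in SPF at 6 weeks; of the 12 tested in the colon, 4 rose and 1 fell under DSS in COL mice and 3 rose and 1 fell in SPF mice.

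Most other targets of interferon-gamma rose. Of 18 tested, 17 rose in COL and 16 in SPF ileum at 10 weeks, 12 and 14 at 6 weeks, and 12 in COL and 17 in SPF colon under DSS, with median log2 fold changes of 1.27 to 3.04. Psmb9 and Psmb8, subunits of the immunoproteasome, and Tap1, which carries peptides to MHC class I molecules, were among those with the smallest p. Psmb9 had log2 rises of 2.9 and 2.82 in 10-week COL and SPF ileum, of 1.41 and 1.87 at 6 weeks, and of 3.01 and 3.17 under DSS in COL and SPF colon. Cxcl9, a chemokine that draws T cells, had log2 rises of 4.46 and 3.93 in 10-week COL and SPF ileum and of 4.22 and 6.83 under DSS in COL and SPF colon. Ido1, a tryptophan-degrading enzyme, had log2 rises of 7.08 and 9.18 under DSS in COL and SPF colon.

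Some genes named for the type I interferon response rose as well. Of 26 tested, 12 rose in COL and 9 in SPF ileum at 10 weeks, 11 and 7 at 6 weeks, and 5 in COL and 9 in SPF colon under DSS, with median log2 fold changes of 0.699 to 1.22. Zbp1, a sensor of unusual nucleic acids, had log2 rises of 4.34 and 4.2 in 10-week COL and SPF ileum, 4.29 and 4.3 at 6 weeks, and 1.97 and 2.38 under DSS in COL and SPF colon. Between 10 and 6 weeks in COL ileum, 0 of the 26 were called, where 2.53% of all genes tested were called in either direction. Of the 18 interferon-gamma targets tested, 6 rose there, among them Cxcl9 (log2 1.84), Psmb9 (0.91) and Tap1 (0.985). Shares were not compared between lists by a test.

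Partners of the GTPases in autophagy and inflammasomes mostly stayed below the threshold. Of 20 tested, 0 to 2 rose and 0 to 2 fell in each of the 6 comparisons, and the median log2 fold changes were 0.0345 to 0.172. Most genes stayed below it too, as 2.78 to 12.2% of all genes tested rose and 1.86 to 11.9% fell. The list was not compared with all genes by a test. Casp4, which encodes the caspase-11 that senses bacterial lipopolysaccharide in the cytosol, rose in all 4 comparisons with GF, by 1.52 and 1.63 on the log2 scale in 10-week COL and SPF ileum and by 1.28 and 1.23 at 6 weeks. Under DSS its log2 differences of 0.651 in COL and 0.593 in SPF colon were not called. Gsdmd, the pore-forming substrate of inflammatory caspases, rose under DSS in SPF colon (log2 1.02 ± 0.304). Gabarapl1, of the Atg8 family of autophagy proteins that in mouse cells direct IRGs and GBPs to vacuoles, fell under DSS in COL and SPF colon (log2 -1.02 and -1.03).

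**Figure D4:**
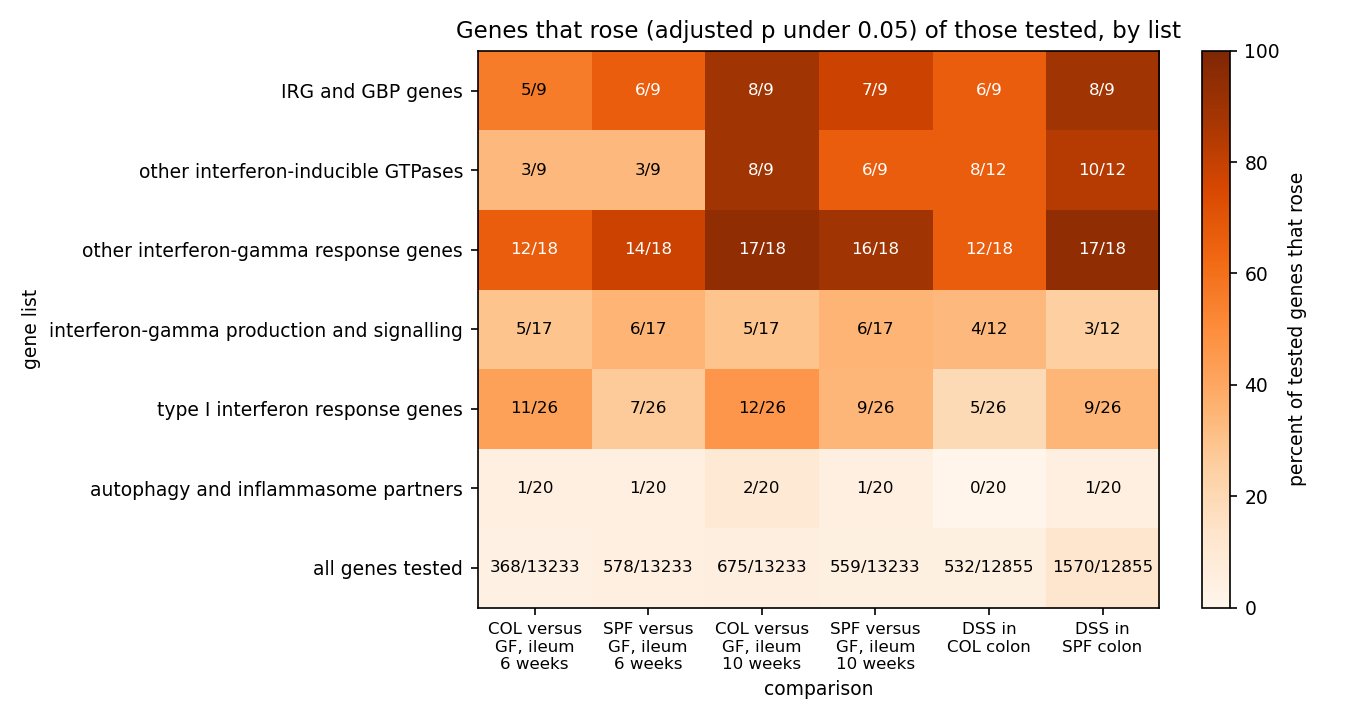
Share of tested genes that rose (number over number tested, darker for a larger share) for the GTPase members and 5 other lists (rows) in COL and SPF ileum against GF at each age and in colon with against without DSS (columns). The interferon-gamma targets have 12 to 17 of 18, and the autophagy and inflammasome partners have 0 to 2 of 20. Of all genes tested, the last row, 2.78 to 12.2% rose.

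At 10 weeks, summed markers of immune cells were higher in COL and SPF ileum than in GF ileum, as were the GTPases. They did not follow the GTPases in every ileum comparison, and the part of these cells in the results was not tested. The summed level of 13 T and NK cell markers was 137, 137 and 142 CPM in 10-week COL ileum, 428, 455 and 925 CPM in 10-week SPF ileum and 9.14, 4.83 and 8.34 CPM in 10-week GF ileum. At 6 weeks it was 21.9, 21.9 and 19.9 CPM in COL ileum, 136, 150 and 363 CPM in SPF ileum and 40.4, 4.18 and 6.13 CPM in GF ileum. The summed GTPase level at 6 weeks was 207 ± 17.9 CPM in COL ileum and 53.7 ± 15 CPM in GF ileum (SD, n = 3 each). The T and NK cell sums of 6-week COL ileum lay below that of GF replicate 1 (40.4 CPM) and above those of the other GF libraries (4.18 and 6.13 CPM). In COL against GF at 6 weeks, 5 of the 11 markers tested had an unadjusted p under 0.05 and 0 were called (median log2 -0.237, edgeR). Of all 13233 genes tested, 2280 had an unadjusted p under 0.05 there. SPF ileum at 10 weeks had more of these markers than COL ileum, with no member called between them. At most 1 of the 13 markers had no read in any library of an ileum group. Cd3e, a chain of the T cell receptor complex, averaged 7.61 ± 1.48 CPM in 10-week COL ileum, 18.7 ± 11.1 CPM in SPF ileum and 0.464 ± 0.269 CPM in GF ileum (SD, n = 3 each).

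Summed markers of 7 B and plasma cell genes were 1600 to 1730 CPM in COL, 948 to 1770 CPM in SPF and 52.2 to 135 CPM in GF ileum at 10 weeks, and 33 to 94.7 CPM in COL, 738 to 929 CPM in SPF and 37.5 to 193 CPM in GF ileum at 6 weeks. Those of 10 macrophage genes were 330 to 399 CPM in COL, 306 to 328 CPM in SPF and 213 to 229 CPM in GF ileum at 10 weeks, and 217 to 316, 275 to 338 and 226 to 257 CPM at 6 weeks. In the colon the ranges of the T and NK sum overlapped between DSS and no DSS (7.81 to 14.1 CPM in COL with DSS, against 8.62 to 15.1 CPM without, and 7.14 to 30.5 CPM in SPF with DSS, against 13.3 to 24.8 CPM without). Those of the 7 monocyte and neutrophil markers did not, at 1820 to 2040 CPM in COL with DSS, against 771 to 923 CPM without, and 1930 to 2110 CPM in SPF with DSS, against 731 to 742 CPM without. Smooth muscle sums were 907 to 3900 CPM over the 6 DSS libraries, against 4620 to 6070 CPM over the 6 without. The 3 colonocyte markers summed to 1040 to 2680 CPM with DSS, against 4610 to 6150 CPM without, and the 6 fibroblast markers to 628 to 1010 CPM, against 1440 to 2070 CPM. These ranges lay apart, and their part in the DSS results was not tested. Within each DSS group, the libraries stood in the same order by smooth muscle sum (1220, 2840 and 3900 CPM in COL, and 2650, 1390 and 907 CPM in SPF) as by summed GTPase level (446, 1070 and 3120 CPM in COL, and 2220, 1020 and 577 CPM in SPF). The 8 epithelium markers gave the same order (7000, 8040 and 8760 CPM in COL, and 10300, 9830 and 6060 CPM in SPF). The 6 endothelium markers ran in the reverse order (52.6, 48.1 and 32.8 CPM in COL, and 34.5, 35.5 and 44.6 CPM in SPF). Such an order rests on 3 libraries per group and was not tested. The low sum of 7 ileal enterocyte markers in these colon libraries was also highest where the GTPases were highest, at 46.8, 46.8 and 197 CPM in COL and 280, 77 and 48.4 CPM in SPF, and was 17.6 to 84.4 CPM without DSS.

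**Figure D5:**
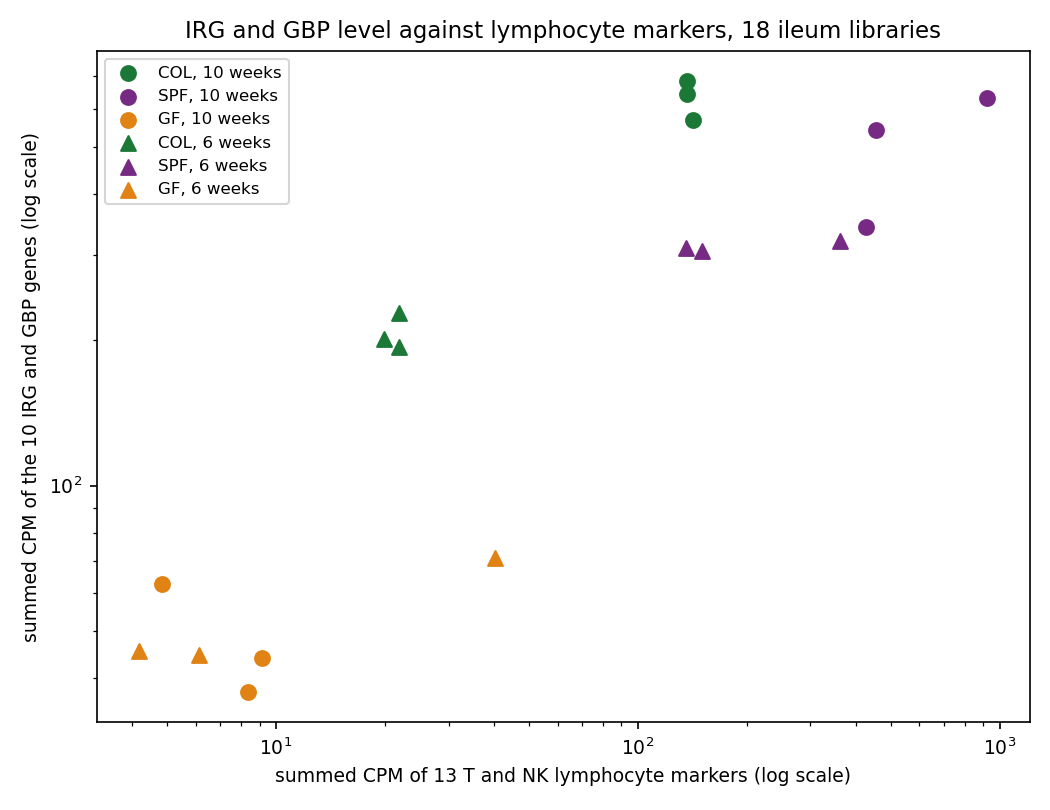
Summed level of the 10 GTPase genes (vertical axis, CPM, log) against the summed level of 13 T and NK cell markers (horizontal axis, CPM, log) in the 18 ileum libraries, coloured by status and shaped by age. GF libraries lie lowest on the vertical axis, and all but 6-week GF replicate 1 (40.4 CPM of the markers) lie at the left. The 6-week COL libraries stand at 19.9 to 21.9 CPM of the markers and above every GF library in the GTPases.

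The members varied together to different degrees. Over the 36 pairs of the 9 tested members, Pearson's r of log2 CPM had a median of 0.801 over the 18 ileum libraries (0.45 to 0.983) and 0.911 over the 12 colon libraries (0.655 to 0.986). After each group's mean was taken away, the medians were 0.349 in the ileum (-0.374 to 0.922) and 0.792 in the colon (0.0126 to 0.933). These points share library depth and groups, and the values are descriptions.

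Among the 10 genes per tissue whose pattern was most like the mean of the members, by Pearson's r of log2 CPM, were in the ileum Gbp2b (0.973), Upp1 (0.962), Cxcl9 (0.959), Barx2 (0.958), Psmb9 (0.958), Gm12250 (0.957), H2-DMb1 (0.956), Tap1 (0.955) and Psmb8 (0.954). In the colon they included Gbp2b (0.988), F830016B08Rik (0.979), H2-DMa (0.976), Gm4841 (0.975), Tap1 (0.973), Psmb9 (0.971), Parp9 (0.967), Ifi47 (0.967) and B2m (0.966). H2-DMa and H2-DMb1 encode the peptide editor of MHC class II, B2m the light chain of MHC class I, and Upp1 a uridine phosphorylase. By Spearman's rank correlation, the 10 nearest genes shared 5 with the 10 nearest by Pearson's r in the ileum and 1 in the colon.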

How the data were processed

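The deposited files hold counts of reads per gene symbol, whole numbers in 1 table per library. Each table lists 24746 symbols, and its 5 closing summary lines belong to no gene and were left out. Per the labels' protocols, libraries were made with a QuantSeq 3′ tag kit for Ion Torrent from total RNA. Per the submitters' processing notes, the authors used Trimmomatic 0.36, FastQC 0.11.5, STAR 2.5.3a, HTSeq and build mm10, and the HTSeq version, strand setting and annotation are not given in the sources used here. Reads assigned to genes were 46.5 to 54.1% of those listed for an ileum library and 44.6 to 52.7% for a colon library, and reads aligned to several places, not counted, were 28 to 34.3% and 30.3 to 36.9%.

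The count model was edgeR 4.0.16 under R 4.3.3 (robust quasi-likelihood fit, TMM scaling, filterByExpr by group, Benjamini-Hochberg adjustment), run apart for the 18 ileum libraries (13233 genes) and the 12 colon libraries (12855), and with all 30 (13807) across tissues, in 18 comparisons. The standard error is the size of the log2 fold change over the square root of F. CPM used reads in genes, and log2 CPM for correlations a prior count of 2. With 3 against 3 libraries, an exact permutation test cannot go below p = 0.1, so no single value was tested that way. Scripts were tested on simulated data. Alternatives were DESeq2 1.42.0, no filter, DESeq2-type size factors, only the libraries compared, a block for the replicate number, each library left out in turn, and TMM-scaled CPM. Deviations from the group means were correlated between libraries with the same replicate number in the titles. They passed 0.1 in every pair only in SPF against GF ileum at 10 weeks (r = 0.246, 0.189 and 0.159). The values given for that comparison come from the fit without pairs, and the replicate number entered only as a block in the alternatives.

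The members and lists were chosen with earlier results of these data known. Named are the members, the list genes called (the 4 with the smallest p where there were more), the 10 genes nearest in pattern per tissue, and a fixed set (Ifng, Ifngr1, Ifngr2, Irf1, Cxcl9, Psmb8, Epcam, Csf1r and Cd3e). A further gene is counted in the list totals but not reported by name here. Gene locations came from GENCODE vM21 on mm10.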

Additional observations from a re-analysis of the deposited data

Results flagged for a closer look

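Only the members and Psmb9 were looked at here. For 3 of these genes, the log2 difference between COL and GF ileum was larger at 10 than at 6 weeks. This is by a direct test of that change over age (edgeR), in which 17 of all 13233 genes tested (0.128%) rose. In COL mice, age and time since colonization changed together and cannot be told apart. The increase was 1.89 ± 0.308 for Gbp7 (adjusted p = 0.0028), 1.5 ± 0.294 for Irgm2 (adjusted p = 0.023) and 1.48 ± 0.239 for the immunoproteasome subunit Psmb9 (adjusted p = 0.0028). Gbp7 was called in all 17 alternatives run for it, with increases of 1.73 to 2.03, and Irgm2 in 11 of 17. Gbp7 stood at 97.8 ± 17.4 CPM in COL and 9.07 ± 1.96 CPM in GF ileum at 10 weeks, and at 26 ± 5.96 CPM in COL and 10.6 ± 2.1 CPM in GF ileum at 6 weeks (SD, n = 3 each). The summed B and plasma cell markers moved the same way, at 1600 to 1730 CPM in COL and 52.2 to 135 CPM in GF ileum at 10 weeks, against 33 to 94.7 CPM and 37.5 to 193 CPM at 6 weeks. So did those of T and NK cells, with means of 139 CPM in COL and 7.44 CPM in GF ileum at 10 weeks, against 21.2 and 16.9 CPM at 6 weeks, and those of dendritic cells, with means of 47.4 CPM in COL and 19.4 CPM in GF ileum at 10 weeks, against 17.2 and 19.7 CPM at 6 weeks. The part of these cells in the result was not tested.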

How the results depend on the processing

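The number of members called stayed within 1.5 times in 202 alternative counts and left that range in 15. For DSS in COL colon, 6 became 3 with only the libraries compared and 2 to 8 when 1 library was left out, and for DSS in SPF colon 8 became 5 to 8. For COL against SPF ileum at 6 weeks, 0 became 2 with DESeq2 and 1 with only the libraries compared. The change of the COL effect with age ran at 1 to 2 and 10 against 6 weeks in COL at 3 to 5 with 1 library left out. With the replicate number as a block, 5 members were called for DSS in COL, 4 for 10 against 6 weeks in COL and 7 for SPF against GF ileum at 10 weeks (also 7 with only those 6 libraries, a fit chosen after seeing the data); no other member count moved. Directions reversed for Irgm1 between ages in COL (-0.142 to 0.473 with 1 library left out, -0.142, -0.079 and -0.0454 being the reversed values) and for Gbp3 in COL against GF at 6 weeks (-0.363 to 0.332, with 0.332 and 0.133 reversed), both uncalled. TMM-scaled CPM moved 5 means at 6 weeks (Irgm2 83.9 in COL and 120 in SPF, and in SPF Igtp 88.9, Iigp1 43.4 and Gbp2 12.5). The cause was not tested in any of these.

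All genes called numbered 918 (376 to 1839 over the alternatives) for DSS in COL, 3097 (1728 to 3513) for DSS in SPF, 1209 (713 to 1544) and 821 (437 to 1073) for COL and SPF against GF at 10 weeks, 614 (311 to 858) and 1018 (513 to 1604) at 6 weeks, 335 (54 to 715), 181 (0 to 570) and 4 (0 to 10) between ages in COL, SPF and GF, 12 (4 to 97) and 13 (8 to 66) for COL against SPF ileum at 10 and 6 weeks, 1 (0 to 29) and 0 (0 to 94) in colon with and without DSS, 19 (15 to 141), 2 (0 to 27) and 0 (0 to 13) for the COL by age, SPF by age and DSS by status tests, and 3620 (2727 to 4094) and 4484 (2551 to 4659) for colon against ileum in COL and SPF. Tgtp1 and Gbp6 are limited by depth.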
